A study of Drosophila melanogaster with 8 samples.

Results

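Wandering larvae of the last larval instar that carry hsromega66, a near-null allele of the hsromega gene, were compared with wild type across 7702 genes of the fruit fly Drosophila melanogaster. A gene entered when its row held 1 symbol, was tested by the authors and reached 5 FPKM (a level in sequenced fragments that corrects for the length of the gene and the size of the library) in either group. These are 7702 of 11938 tested rows with 1 symbol, of 12523 tested rows and of 15904 rows in all. Syt4, at 5.00001 FPKM in hsromega66, and CG42596, at 5.00589 FPKM in WT, lay just inside the limit. CG7886, at 4.99997 FPKM in WT, and RpI135, at 4.99979 FPKM in hsromega66, lay just outside it.

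The wild type (WT) was the Oregon R+ strain. The hsromega66 larvae had the labelled genotype w1118; Sp/CyO'; hsromega66, so they differed from WT in the white mutation and in the second-chromosome marker and balancer as well as in hsromega. The Hsp90GFP larvae were used here only for levels set side by side, with the authors' q. Their label, w1118, Sp/CyO' and hsp90GFP, shares the w1118 and Sp/CyO' background and differs in the last part. In WT against hsromega66, effects of the allele and of the background cannot be told apart. In hsromega66 against Hsp90GFP, neither can effects of hsromega66, of hsp90GFP and of the chromosomes that carry them. Each group had 2 libraries, each from 5 pooled whole larvae whose sex is not given, and stranded libraries depleted of ribosomal RNA were read as 50 bp pairs. The deposited tables give every group a single FPKM for each gene, so no level below carries a spread between libraries, and how deeply each library was read is unknown.

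hsromega makes long non-coding RNAs that are strongly induced by heat shock and are also made in most unstressed cells. Its nuclear transcripts organise the omega speckles, nucleoplasmic bodies that hold hnRNPs and other RNA-binding proteins. The larvae were at the stage when feeding stops, the salivary glands fill with glue protein and the fat body has loaded the hemolymph with storage proteins.

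A gene is called here when its q was under 0.05 in the authors' deposited table. Of the 7702 genes 130 were called (1.69%), 100 of them higher in hsromega66 (1.3%) and 30 lower (0.39%). Over all 12523 tested rows, 155 were called (1.24%). Folds are ratios of the authors' FPKM, and log2 folds were computed as log2(FPKM + 1) of hsromega66 minus that of WT, which understates changes of genes at low levels. The median log2 fold over the 7702 genes was -0.01, and the quartiles were -0.19 and 0.21. The smallest called log2 fold was 1.52, for CG8665, and 136 of the 232 genes beyond a log2 fold of 2 were not called. The unadjusted p in the authors' deposited table was under 0.05 for 337 of the 7702 genes, where 385 would be expected with no change at all. When the deposited p-values were adjusted within the table by the Benjamini-Hochberg method, 57 of the 130 calls remained. Of the called genes with values below, this stricter adjustment kept Hsromega, Amy-d, Mal-A1, LysX, Lip3, AttB, Dro, Listericin, IM2, CG13560, Sgs1, CG7587, Eig71Ed, Lsp1gamma, mthl8, CR40469, Cpr65Av, ry, Cyp12c1, CG14567, CG33346, CG42807, MtnB, CG32284, ninaD, Cyp4e3, Cyp309a1, Cyp28a5, Cpr11A and vanin-like. The other called genes with values below were not kept.

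**Figure D1:**
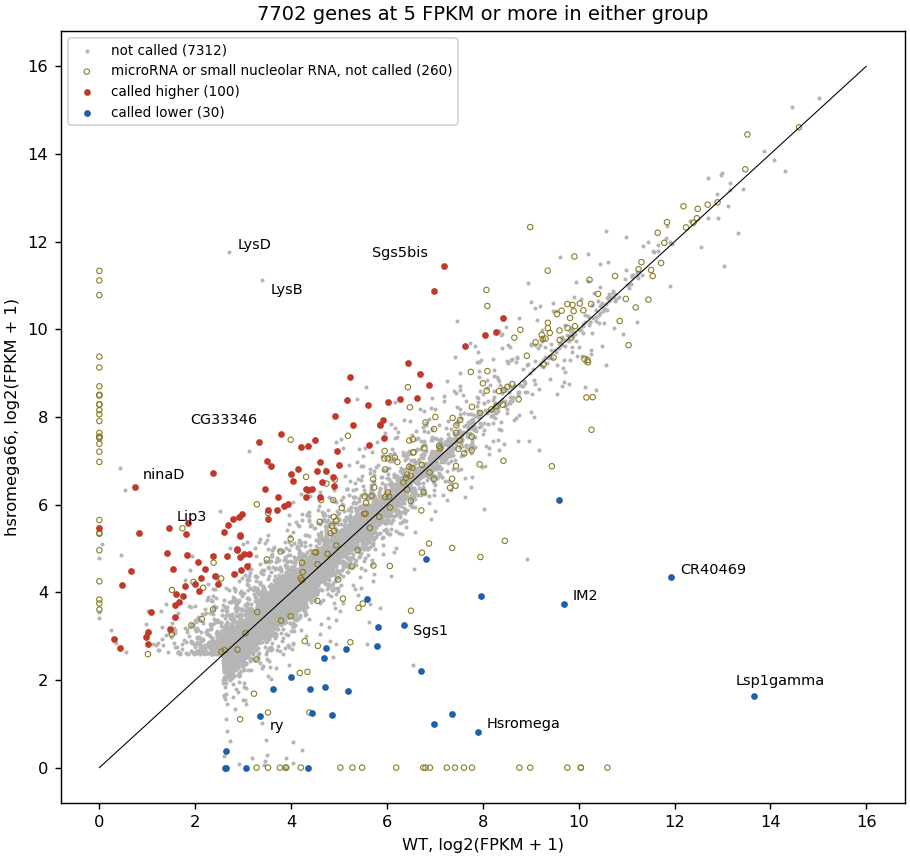
Level of each of the 7702 genes in WT (x axis) and hsromega66 (y axis), both as log2(FPKM + 1), with 1 point per gene and the line of equal level. Red points are the 100 genes called higher, blue points the 30 called lower, and open circles the microRNA and small nucleolar RNA genes, which reach the axes without a call.

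The targeted gene was read first. Hsromega (3R 21296127 to 21317836 in dm6, plus strand) was at 236 FPKM in WT and 0.767 in hsromega66, with 273 in Hsp90GFP. Its fall was 308-fold and was kept under the stricter adjustment. The genes beside it were not called. Here and below, the start of a gene is its lower coordinate, whatever its strand. CG16791, on the minus strand with its lower coordinate at 21318300 next to the end of hsromega, was at 21.2 FPKM in WT and 21.7 in hsromega66. CG3301, whose start is the nearest on the other side, was at 5.14 and 9.66 FPKM. No gene was called among the 12 that start within 100 kb of hsromega, and their median log2 fold was 0.07. Within 2000 kb, 7 of 233 genes rose and none fell, a share called of 3% beside 1.69% over all 7702 genes. Over the whole arm 3R, 32 genes rose and 5 fell besides hsromega itself, and the rises lay on both sides of the gene.

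**Figure D2:**
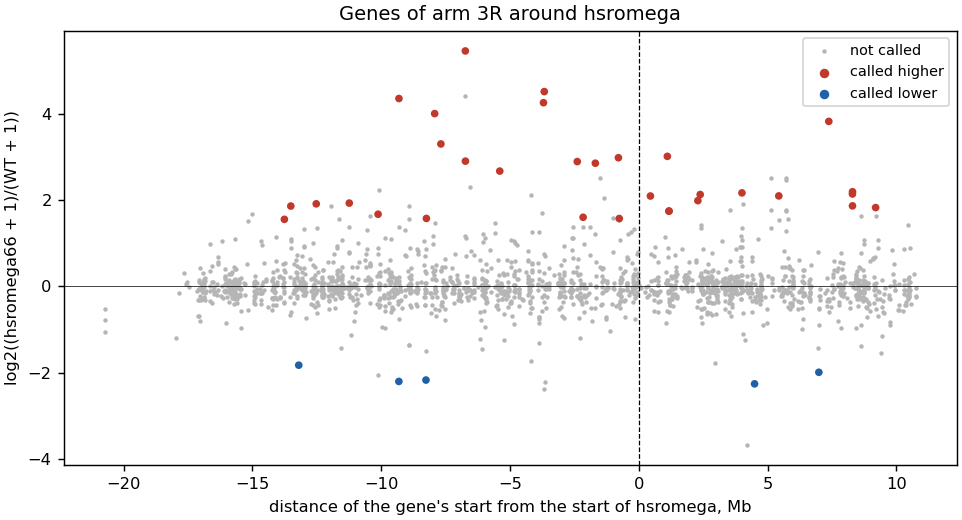
Log2 fold of each gene of arm 3R (y axis) against the distance of its start from the start of hsromega in Mb (x axis), with microRNA and small nucleolar RNA genes left out. Red and blue points are called genes, and the dashed line marks hsromega, around which no gene within 100 kb was called.

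Some genes of food digestion rose in hsromega66, and no gene of the digestion lists fell. Amylases and maltases split starch and sugars in the gut. Of their 11 members in the set 3 rose (27.3%, beside 1.3% of the 7702 genes) and none fell, with a median log2 fold of 1.79. The amylase Amy-d was at 9.13 FPKM in WT, 171 in hsromega66 and 34.2 in Hsp90GFP, a rise of 18.7-fold. The neighbouring amylase Amy-p was at 19.0, 81.5 and 32.3 FPKM, a rise of 4.3-fold. The 2 amylases are near-identical copies, so the split of reads between them is uncertain. The maltase Mal-A1 was at 5.07 FPKM in WT, 40.5 in hsromega66 and 5.53 in Hsp90GFP, the last close to WT. Mal-A5 was the 1 member below WT, at 218 FPKM in WT and 163 in hsromega66, and was not called.

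Trypsins and Jonah proteases cut dietary protein. Of the 27 gut serine proteases in the set 6 rose (22.2%, beside 1.3% of the 7702 genes) and none fell. Their median log2 fold was 1.06, and 22 lay above WT. Under the stricter adjustment none of the 6 was kept. Of the called members, 4 trypsins start within 9485 bases on 2R. betaTry was at 97.6 FPKM in WT, 344 in hsromega66 and 430 in Hsp90GFP. thetaTry was at 24.1, 91.1 and 23.4 FPKM, kappaTry at 3.2, 15.3 and 6.89, and lambdaTry at 0.965, 6.84 and 1.11. The other 2 were the trypsin-like Ser6, at 2.01, 12.0 and 5.82 FPKM, and Jon99Fii, at 343, 1218 and 1252 FPKM. betaTry and Jon99Fii were thus at or above the hsromega66 level in Hsp90GFP, with q = 0.0074 and q = 0.12 for Hsp90GFP against WT in the authors' deposited table. Some members lay the other way without a call: Jon99Ciii was at 1513 FPKM in WT and 579 in hsromega66, and Jon74E at 29.7 and 9.33. The most abundant member in hsromega66, Jon25Biii, was at 1516 and 4839 FPKM, with q = 0.14 in the authors' deposited table and so no call. Many of these proteases are close copies of each other, and the split of reads among them is uncertain.

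Lysozymes of the fly gut digest bacterial cell walls taken in with food, and all 7 in the set lay above WT, with a median log2 fold of 4.79. Of these, 4 reached 5 FPKM in both groups, and their median was 5.13. LysX, which stands apart from the others at 3L 1194739, rose 5.88-fold from 38.1 to 224 FPKM and was kept under the stricter adjustment; it was at 4.27 FPKM in Hsp90GFP. The other 6 are listed under 1 shared locus of 9 rows, the split of reads among them is uncertain, and none was called. LysD was at 5.49 FPKM in WT, 3460 in hsromega66 and 1343 in Hsp90GFP. LysB was at 9.52, 2234 and 795 FPKM. LysS was at 780 FPKM in WT, 3195 in hsromega66 and 1116 in Hsp90GFP. In the authors' deposited table q was 0.254 for LysD, 0.139 for LysB and 0.336 for LysS. Summed over the 7 lysozymes, the level was 835 FPKM in WT, 9185 in hsromega66 and 3275 in Hsp90GFP.

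Among 6 lipases and lipid-droplet genes 2 rose (33.3%, beside 1.3% of the 7702 genes). Lip3, a secreted acid lipase, was at 1.75 FPKM in WT, 43.1 in hsromega66 and 0.921 in Hsp90GFP, a rise of 24.7-fold. The gut lipase gene mag was at 197, 784 and 259 FPKM, and it shares its locus with other rows. Peptides of the peritrophic matrix, the chitin sleeve that lines the midgut, were not called: 0 of 13 matrix and mucin genes passed, with 10 above WT and a median log2 fold of 0.63. Peritrophin-15a was at 1167 FPKM in WT and 3392 in hsromega66, with q = 0.118 in the authors' deposited table. The gut protease list summed to 12911 FPKM in WT, 25245 in hsromega66 and 13816 in Hsp90GFP. In whole larvae, more cells of a type and more RNA per cell cannot be told apart, and the part of the amount of gut in these results was not tested.

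Called genes of the Imd-type antimicrobial peptides all rose, and those of the immune-induced short peptides all fell. The Imd pathway senses the peptidoglycan of Gram-negative bacteria and drives attacins, diptericins, drosocin and related peptides. Of 10 such peptides in the set 5 rose (50%, beside 1.3% of the 7702 genes) and none fell, with a median log2 fold of 2.33. Of the 10, 5 reached 5 FPKM in both groups, and their median was 2.04. The called AttD, AttB and Dro entered the set through hsromega66 alone, the group where they are high, so the limit itself favours rises in this list. AttD, an attacin, was at 0.783 FPKM in WT, 39.8 in hsromega66 and 7.89 in Hsp90GFP. AttB was at 2.51 FPKM in WT, 39.1 in hsromega66 and 2.17 in Hsp90GFP, and its close copy AttA at 4.98, 12.0 and 0.523 FPKM was not called. Drosocin (Dro) was at 1.65, 28.9 and 2.39 FPKM. The diptericin genes Dpt and DptB, which start 1626 bases apart, were at 25.6 and 6.67 FPKM in WT, 109 and 38 in hsromega66, and 8.61 and 6.44 in Hsp90GFP. For hsromega66 against Hsp90GFP, q was 0.00144 for Dpt, 0.00264 for AttB, 0.0439 for Dro, 0.052 for DptB and 0.0706 for AttD in the authors' deposited table. Metchnikowin (Mtk) was at 40.2 FPKM in WT and 337 in hsromega66 without a call, and the cecropin CecC at 10.7 and 7.86 FPKM. None of 3 genes of the antifungal drosomycin family was called (median log2 fold -0.52): Drs was at 1311 FPKM in WT and 390 in hsromega66, and Drsl2 at 71.0 and 325.

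In the lists of peptidoglycan recognition and of Toll and Imd signalling 1 gene each was called, 10% and 4.55% of their genes. Over all 7702 genes, 1.3% were called higher. PGRP-SB1, a secreted peptidoglycan-cutting amidase, rose from 3.58 to 22.3 FPKM, and it was the 1 called gene of 10 peptidoglycan recognition genes, whose median log2 fold was 0.10. pirk, which dampens Imd signalling, rose from 6.69 to 26.8 FPKM and was the 1 called gene of 22 Toll and Imd signalling genes (median 0.09). Of the 5 called Imd-type peptides, AttB and Dro were kept under the stricter adjustment, and neither PGRP-SB1 nor pirk was. Listericin, an antibacterial peptide outside the list, rose 8.78-fold from 29.3 to 258 FPKM, was at 54.1 FPKM in Hsp90GFP, and was kept.

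The bomanins are short secreted peptides that the Toll pathway induces after fungal and Gram-positive infection. The list of 12 immune-induced short peptides in the set holds bomanins and other peptides. Of the 12, 5 fell (41.7%, beside 0.39% of the 7702 genes) and none rose. In all 11 lay below WT, and the median log2 fold was -3.77. For the 8 that reached 5 FPKM in both groups it was -2.70, and the others include genes that entered through WT alone. The 5 genes that fell start within 6291 bases on 2R. IM2 (BomS2) was at 824 FPKM in WT, 12.4 in hsromega66 and 3.52 in Hsp90GFP, a fall of 66.5-fold. IM3 (BomS3) was at 767 FPKM in WT, 67.9 in hsromega66 and 29.7 in Hsp90GFP, a fall of 11.3-fold. IM1 (BomS1), CG16836 (BomT2) and IM23 (BomBc1) were at 248, 103 and 163 FPKM in WT and at 14, 3.61 and 1.33 in hsromega66. The WT level of each of these 5 genes stood above the levels in hsromega66 and Hsp90GFP. The difference between Hsp90GFP and WT had q = 0.00372 for IM2 and 0.00264 for IM3 in the authors' deposited table, in a comparison where 137 of 12621 tested rows (1.09%) were called. IM4, at 485 FPKM in WT and 26.2 in hsromega66, had a log2 fold of -4.16, beside -4.05 for IM1, but its q of 0.676 in the authors' deposited table gave no call. Of the 5, only IM2 was kept under the stricter adjustment. CG13560 on 2R, in no list, fell 126-fold from 125 to 0.991 FPKM and was at 8.11 in Hsp90GFP.

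**Figure D3:**
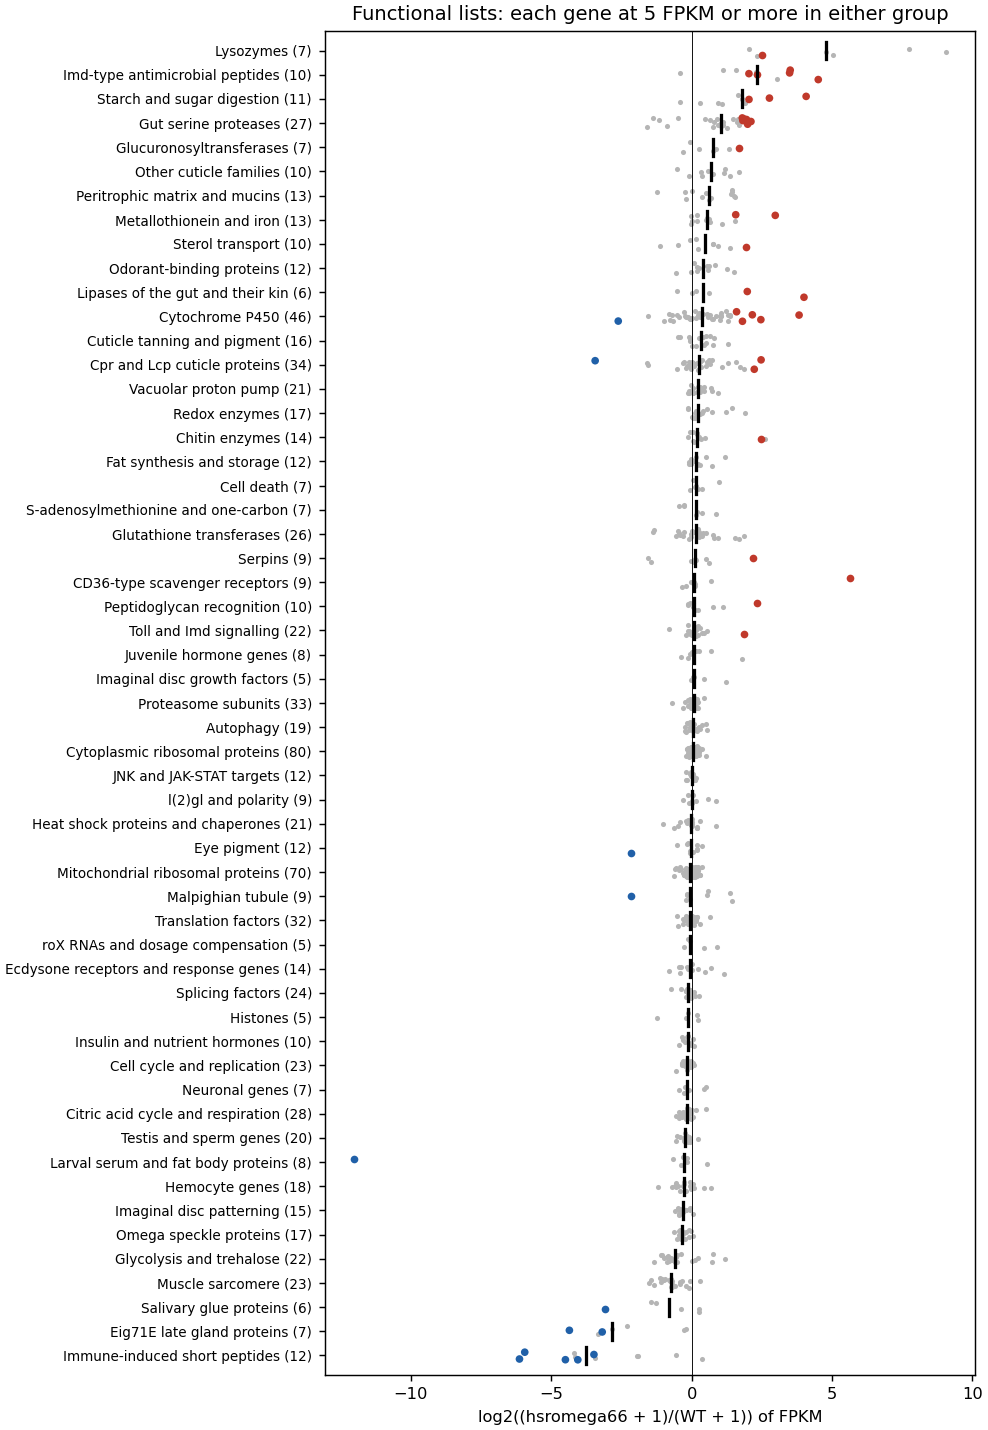
Log2 fold of every gene in the functional lists with at least 5 genes in the set (x axis; 1 row per list, number of genes in brackets), ordered by the median, which is the black bar. Red and blue points are called genes; lysozymes, Imd-type peptides and starch enzymes lie at the top, and the immune-induced short peptides and Eig71E genes at the bottom.

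Of the salivary gland and fat body lists 4 genes fell and none rose: 1 of 6 glue genes (16.7%), 2 of 7 Eig71E genes (28.6%) and 1 of 8 fat body genes (12.5%), beside 0.39% of the 7702 genes called lower. Of 6 glue genes, Sgs1 fell 9.35-fold, from 80.6 to 8.62 FPKM. Sgs3 was at 1121 FPKM in WT and 412 in hsromega66 without a call, and the most abundant glue gene, Sgs7, was at 33244 and 39513. The glue list summed to 46178 FPKM in WT, 50415 in hsromega66 and 28409 in Hsp90GFP. CG7587, now named Sgs5bis and the neighbour of Sgs5 on 3R, went the other way. It was at 145 FPKM in WT, 2783 in hsromega66 and 223 in Hsp90GFP, a rise of 19.2-fold, while Sgs5 was at 7687, 5986 and 4232 FPKM and was not called. The Eig71E genes are late secretion genes of the gland that ecdysone induces, and all 7 in the set lay below WT with a median log2 fold of -2.83. Only 3 of the 7 reached 5 FPKM in both groups, and their median was -0.27. The others entered the set through their WT level alone, so the limit itself favours low folds in this list. Eig71Ed, with 19.5 FPKM in WT, was listed at 0 in hsromega66, and Eig71Eb fell from 20.5 to 1.37 FPKM. The abundant member Eig71Ee was at 1370 FPKM in WT and 1139 in hsromega66.

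The larval serum proteins are amino acid stores made by the fat body. Lsp1gamma was at 12858 FPKM in WT, 2.1 in hsromega66 and 1.62 in Hsp90GFP. The libraries labelled as carrying hsp90GFP and hsromega66 together were at 8541 FPKM. The low level was thus not shared by all genotypes labelled with that background. Lsp2 was at 10998, 9468 and 10151 FPKM, and no other gene of the 8 in the fat body list was called. mthl8, a methuselah-like receptor gene nearer the same end of 3L, had 7.37 FPKM in WT and was listed at 0 in hsromega66 and Hsp90GFP.

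Other genes were low in hsromega66 and not in Hsp90GFP, genotypes that differ in hsp90GFP as well as in hsromega66. CR40469, a long non-coding RNA gene near the end of X (X 122493), was at 3884 FPKM in WT, 4742 in Hsp90GFP and 19.3 in hsromega66, a fall of 201-fold that was kept. The libraries labelled as carrying hsp90GFP and hsromega66 together (w1118; Sp/CyO'; hsp90GFPhsromega66) were at 26.9 FPKM, although their hsromega level of 77.9 FPKM lies against that label. The difference between hsromega66 and Hsp90GFP had q = 0.00144 for CR40469 in the authors' deposited table, in a comparison where 125 of 12534 tested rows (0.997%) were called. Cpr65Av, a chitin-binding cuticle protein, was at 35.3 FPKM in WT, 55.4 in Hsp90GFP and 2.36 in hsromega66. rosy (ry), the xanthine dehydrogenase gene of purine breakdown and eye pigment, was at 9.26, 6.38 and 1.28 FPKM. Cyp12c1, of the mitochondrial branch of the cytochrome P450 family, was at 20.2, 14.8 and 2.46 FPKM. All 4 were kept under the stricter adjustment. CG14957 was at 54.7, 110 and 5.8 FPKM, and CG14567 at 34.2, 34.5 and 5.52 FPKM. In the libraries labelled as carrying hsp90GFP and hsromega66 together, Cpr65Av was at 11.9 FPKM, ry at 3.22 and Cyp12c1 at 16.4. In the same libraries CG14957 was at 199 FPKM and CG14567 at 29.8, so not all of these genes were low there. For Cpr65Av, ry, Cyp12c1, CG14957 and CG14567, q for hsromega66 against Hsp90GFP was between 0.00144 and 0.0074 in the authors' deposited table.

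**Figure D4:**
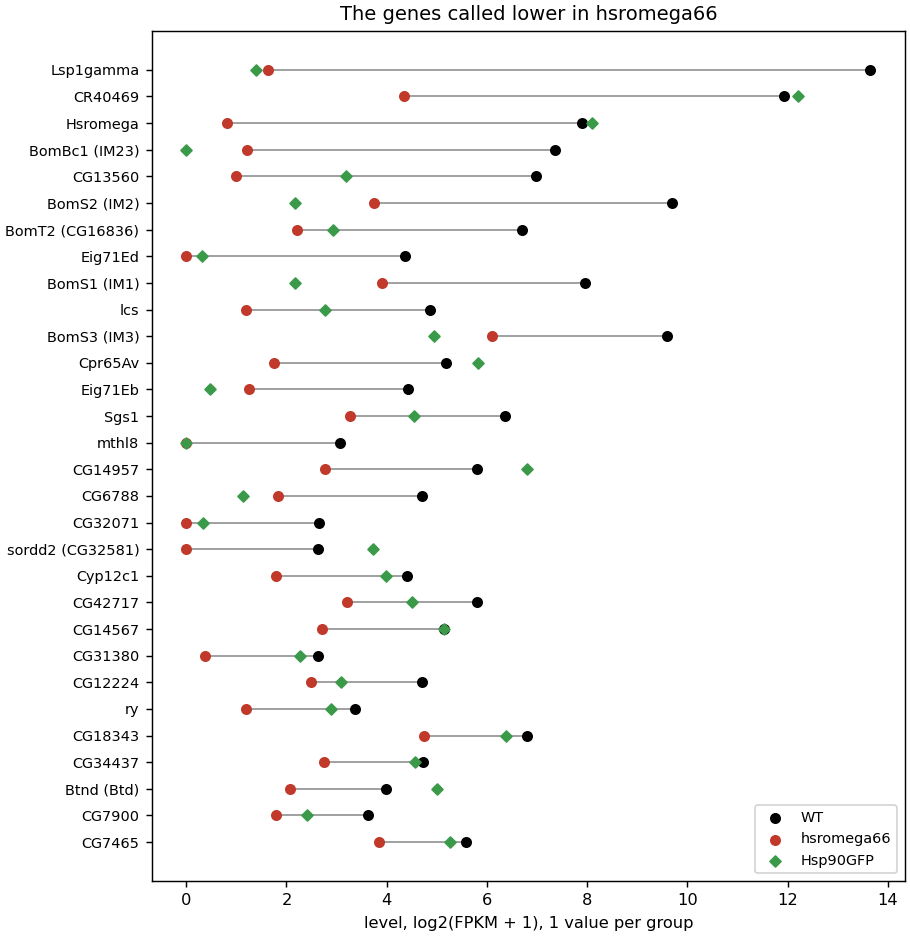
Level as log2(FPKM + 1) (x axis) of each of the 30 genes called lower in hsromega66 (rows, in order of log2 fold), with 1 value per group for WT (black), hsromega66 (red) and Hsp90GFP (green). For Lsp1gamma, IM2 and mthl8 the Hsp90GFP value lies with hsromega66, and for CR40469, Hsromega and Cpr65Av it lies with WT.

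Genes that rose also differed in their level in Hsp90GFP. CG33346 was at 12.7 FPKM in WT, 193 in hsromega66 and 10.7 in Hsp90GFP, and CG42807 at 34.9, 335 and 31.2 FPKM, so that both were high in hsromega66 and near WT in Hsp90GFP (q = 0.00144 for hsromega66 against Hsp90GFP in the authors' deposited table, for each). MtnB, a metallothionein that binds heavy metals, was at 19.3 FPKM in WT, 160 in hsromega66 and 116 in Hsp90GFP. MtnD was at 60.7, 183 and 179 FPKM, and CG32284 at 10.3, 126 and 164 FPKM, so that hsromega66 and Hsp90GFP both lay above WT. For Hsp90GFP against WT, q was 0.00472 for MtnB, 0.00144 for CG32284 and 0.0623, without a call, for MtnD in the authors' deposited table. ninaD, a scavenger receptor for carotenoid uptake, lay between, at 0.682 FPKM in WT, 84.2 in hsromega66 and 16.9 in Hsp90GFP. The gene glob1, which encodes a haemoglobin, rose 6.7-fold from 16.8 to 112 FPKM, with 48.5 in Hsp90GFP.

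**Figure D5:**
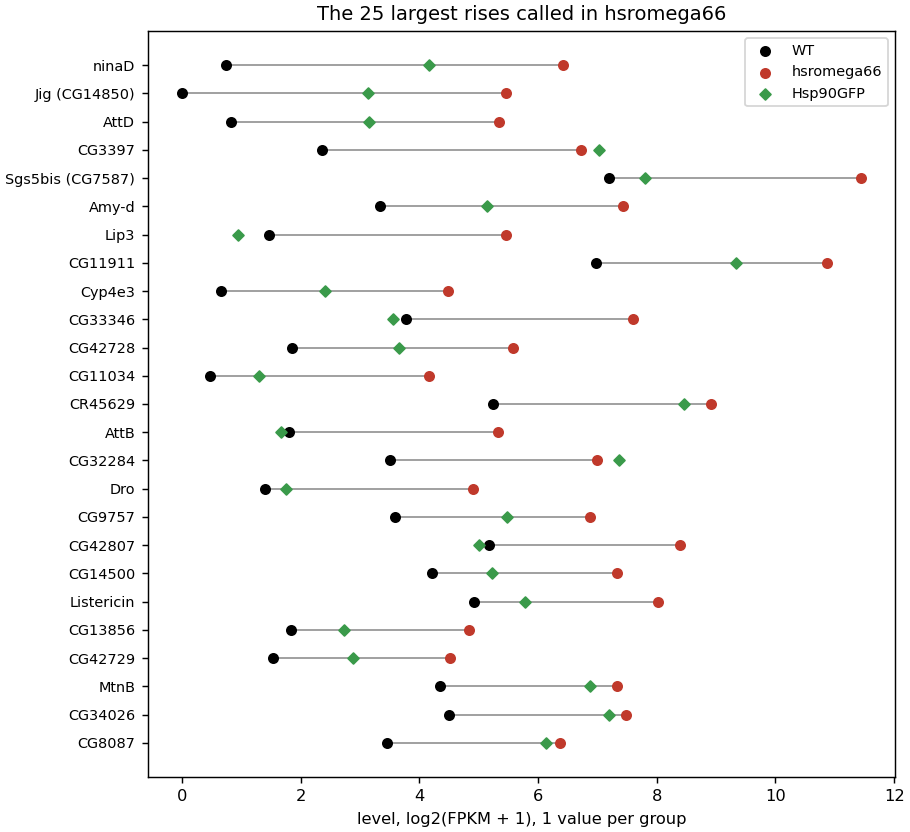
Level as log2(FPKM + 1) (x axis) of the 25 genes with the highest log2 fold among those called higher in hsromega66 (rows), with 1 value per group for WT (black), hsromega66 (red) and Hsp90GFP (green). For Lip3, CG33346, AttB and CG42807 the Hsp90GFP value lies at the WT value, and for CG3397, CG32284 and MtnB it lies near the hsromega66 value.

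Families of detoxification and cuticle held calls both ways. Of 46 cytochrome P450 genes 5 rose and 1, Cyp12c1, fell, a share called of 13% beside 1.69% over all 7702 genes. Their median log2 fold was 0.36. Cyp4e3 was at 0.57 FPKM in WT, 21.3 in hsromega66 and 4.3 in Hsp90GFP, Cyp309a1 at 12.1, 71.8 and 56.9, and Cyp28a5 at 12.1, 57.9 and 70.1. These 3 also rose in Hsp90GFP against WT, with q = 0.0393, 0.0185 and 0.00144 in the authors' deposited table. Cyp6t1, at 1.02, 6.1 and 4.6 FPKM, and Cyp12a5, at 6.04, 20.4 and 8.12, were the other called rises. None of 26 glutathione transferases was called (median 0.15), and 1 of 7 glucuronosyltransferases rose. Among 34 cuticle proteins of the Cpr and Lcp families, Cpr11A rose from 4.14 to 27.6 FPKM and Lcp65Ac from 22.2 to 108. The most abundant, Lcp4, was at 22544 and 34279 FPKM without a call. Cht4, a chitinase, rose from 1.11 to 10.8 FPKM and was at 14.4 in Hsp90GFP. Npc2d, of a sterol-binding family, rose from 20.5 to 81.2 FPKM. On X, vanin-like, of the pantetheinase family, rose from 6.55 to 51.6 FPKM, while the related biotinidase gene Btd (now Btnd), which starts 17.1 kb away, fell from 14.9 to 3.21 FPKM. In Hsp90GFP the pair was at 9.63 and 31 FPKM.

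Large housekeeping and tissue groups held no call, beside a share called of 1.69% over all 7702 genes. At that share, groups of this size would hold few calls or none. None of 80 cytoplasmic ribosomal protein genes was called (median log2 fold 0.04), nor any of 70 mitochondrial ribosomal protein genes (-0.04), 33 proteasome genes (0.07) or 21 chaperone genes (-0.01). The heat shock cognate gene Hsc70-4 was at 944 FPKM in WT and 960 in hsromega66, and Hsp23 at 1995 and 2266. The lowest log2 fold of the chaperone list, -1.02, was that of l(2)efl, at 744 and 366 FPKM. Of 17 omega speckle protein genes, 16 lay below WT and none was called (median -0.33). Hrb27C was at 221 FPKM in WT, 185 in hsromega66 and 188 in Hsp90GFP, and sqd at 132, 97.2 and 120 FPKM. Of 23 sarcomere genes, 22 lay below WT and none was called (median -0.74); the myosin light chain gene Mlc2 was at 1697 FPKM in WT, 1042 in hsromega66 and 1919 in Hsp90GFP. Of 22 glycolysis and trehalose genes, 16 lay below WT and none was called (median -0.58), with the lactate dehydrogenase gene ImpL3 at 214 and 83.9 FPKM.

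Markers of the tissues in a whole larva were found in both groups. The sarcomere list summed to 12979 FPKM in WT and 8446 in hsromega66, the hemocyte list to 695 and 612, the neuronal list to 75.6 and 78.2 and the testis list to 680 and 595. No member of these 4 lists that passed the limit was at 0. Their part in the results above was not tested.

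The position and structure of the called genes were also read. Of the 130 genes, 36 started within 20 kb of another gene called in the same direction, in 15 groups. No matching count was made for genes of the set that were not called, so the share has nothing beside it. The groups held 29 of the 100 genes that rose and 7 of the 30 that fell, and the amylases, the 4 trypsins, Dro with AttB, the diptericins and the bomanins are among them. Counted with the called genes, the span of the 4 trypsins held 8 genes of the set and that of the 5 bomanins 7. The span of Dro with AttB held 3, and those of the amylases and the diptericins 2 each. Pebp1 and CG7054, which start 1049 bases apart on 3R, rose from 48.1 to 164 and from 7.73 to 28.3 FPKM. The share called was 2.29% on 2R, 1.99% on 3R, 1.84% on 3L, 1.06% on 2L and 1.02% on X, and none of 66 genes on chromosome 4 was called. By level, 0.942% were called at a mean of 2.5 to 10 FPKM, 3.43% at 100 to 1000 FPKM and 1.86% above 1000 FPKM. Called protein-coding genes were short, with a median summed exon length of 996 bases (quartiles 665 and 1594, 126 genes). That of all protein-coding genes of the set was 1869 bases (quartiles 1126 and 3247, 7188 genes). In the files 74 of the 130 carry only a CG or CR number. The same count over the 7702 genes was not made, so this cannot be read as a trait of the called genes. Of the 130, 17 share their locus with another row, as do 3578 of the 7702 genes, and no source used here says whether the authors' counting used strand.

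Many of the smallest RNAs had wide folds, and none was called. Of 41 microRNA genes 27 lay beyond a log2 fold of 2, and of 219 small nucleolar RNA genes 48 did, against 141 of 7188 protein-coding genes. snoRNA:U31:54Ec was listed at 0 in WT and at 2580 FPKM in hsromega66, while snoRNA:U27:54Eb of the same locus had 1551 FPKM in WT and was listed at 0 in hsromega66. Both rows lie in a locus of 18 rows, and for a gene this short a few fragments set the FPKM. The most abundant small nucleolar RNA, snoRNA:Psi18S-1820, was at 24801 FPKM in WT and 24970 in hsromega66.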

How the data were processed

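Total RNA from whole larvae was sequenced; Cuffdiff 2.1.1, Cufflinks, TopHat, Bowtie and the genome build dm6 are named in the submitters' processing notes, and other versions and settings were not given in the sources used here. Per the file headers, the deposited values are FPKM, 1 per group and gene. The deposited test statistic is a score, and with the log2 ratio it gave an implied standard error (median 0.877 over the set). The deposited p-value and q-value come from the authors' test; the smallest p-value listed is 5.00e-05, and no source used here says over which tests q was adjusted. Values printed as called or as q are theirs; folds, list counts and medians were computed from the deposited FPKM with a pseudocount of 1. No test over libraries could be made, so p-values measure only what the authors' test took as spread, which may be technical.

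The members and the 61 gene lists were chosen with earlier results of these data known. By rule, the text could name hsromega, the 25 highest and 20 lowest called log2 folds, up to 5 called genes per list, the 3 most abundant genes of a list without calls, the 10 most abundant genes, the 3 nearest genes on each side of hsromega, the 10 widest folds without a call and the genes at the limit. Named beside these, after their values were seen, were AttA, Drs, Drsl2, Mtk, CecC, betaTry, LysB, LysS, Jon25Biii, Jon99Ciii, Jon74E, Mal-A5, IM4, Sgs3, Sgs5, Eig71Ee, ImpL3,  Cyp12a5, glob1, vanin-like, Btd, Pebp1, CG7054, CG8665 and CG14567. Symbols were matched to Ensembl release 115 and RefSeq, with the position checked (99.5% of the set). Computation used matplotlib 3.10.9, scipy 1.17.1, pandas 2.3.3 and numpy 2.4.6 in Python 3.11.15. The z test on the implied errors was tested on simulated data.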

Additional observations from a re-analysis of the deposited data

Results flagged for a closer look

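CR41602, an 18S ribosomal RNA pseudogene on X in the RefSeq annotation, was not tested by the authors and is outside the set. It was listed at 0 in WT and Hsp90GFP and at 11999 FPKM in hsromega66, and at 22250 FPKM in the libraries labelled as carrying hsp90GFP and hsromega66 together. The row merging Unc-115a, Unc-115b and p24-2, outside the set because it holds several symbols, was listed at 0 in WT and Hsp90GFP and at 6.21 FPKM in hsromega66. Both were picked out because a signal appears outside the set above the level in WT.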

How the results depend on the processing

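The deposited tables hold 1 value per group, so leaving out a library was not run. No paired analysis was possible because no value per library is given. The 130 calls (100 higher, 30 lower) became 64 (46 and 18) at a deposited q under 0.01 and 57 (41 and 16) with Benjamini-Hochberg adjustment within the table. A z value on the implied standard error called 30 genes (21 and 9), 21 of them among the 130, and 32 (23 and 9) after centring on the median. With at least 5 FPKM required in both groups, 78 remained, of which 11 were lower. The other filters and call rules gave 91 to 152 calls, each within 1.5 times the 130. The cause of the smaller count by the z value was not tested. Direction under other pseudocounts and centring was compared for called genes only. No reversal was possible there, because a pseudocount keeps the sign and the centring was far smaller than any called fold. Of the list medians, 4 near 0 changed sign (dosage compensation, Malpighian tubule, eye pigment and CR genes). The Eig71E median became -1.56 with a pseudocount of 5. Depth per library is unknown, and genes at low levels and short RNAs rest on the fewest fragments.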
